A study of Mus musculus with 8 samples.

Results

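Wnt ligands, their receptors and co-receptors, and the secreted antagonists of the pathway were followed in mouse interfollicular epidermis, which is the part of the skin epithelium outside the hair follicles. Members were chosen by a rule on gene names, which was set with earlier results of these data known. It takes every probe set that the platform annotation pairs with 1 gene symbol of the Wnt, Fzd, Dkk or Sfrp families, with Dkkl1, Wif1, Lrp5 or Lrp6. This gave 40 of 17097 genes, read by 63 of the 45037 probe sets tested: 28 probe sets of 19 ligands, 23 of 12 receptors and co-receptors, and 12 of 9 antagonists. A further 3 probe sets that the annotation assigns to Sfrp1 together with another gene were left out by the rule. Of the genes, 22 had 1 probe set and 18 had several.

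The samples are 4 arrays labelled G9a cKO, a conditional knockout of the histone H3 lysine 9 methyltransferase G9a (gene Ehmt2), and 4 labelled G9a WT. In both groups the back skin was shaved and treated with the carcinogen DMBA (0.25 mg/ml) and the tumour promoter TPA (0.02 mg/ml), 200 µl of each in acetone, once a week for 6 weeks from 8 weeks of age. All animals are labelled as 15 weeks old, and the epidermis is called pre-neoplastic. The labels give neither the strain, nor the sex, nor what drives the deletion, nor which part of the gene is removed, nor whether each array is a separate animal, so p-values measure the spread between these arrays.

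Wnt proteins are secreted, lipid-modified ligands. They bind Frizzled receptors, and with the co-receptor Lrp5 or Lrp6 they stabilise beta-catenin, which then acts with TCF/LEF factors in the nucleus, while other branches steer cell polarity and movement without beta-catenin. Dickkopf proteins act mainly on Lrp5 and Lrp6, whereas secreted Frizzled-related proteins and Wif1 bind the ligands themselves. In skin the pathway is known for initiating hair follicles, driving their growth phase and keeping basal keratinocytes dividing.

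As a check of the labels, Ehmt2 averaged 6.61 ± 0.36 on the log2 scale over the 4 cKO arrays and 9.49 ± 0.28 over the 4 WT arrays (mean ± SD) at probe set 1460692_PM_at (limma adjusted p = 0.000244). At probe set 1426888_PM_at the means were 8.36 ± 0.06 and 8.35 ± 0.12 (adjusted p = 0.996). Array medians lay between 5.72 and 5.80. On the first principal component over all probe sets, which held 36.9% of the variance, WT 4, cKO 3 and cKO 4 stood at -23.5, -18.0 and -19.2 and the other 5 arrays between 0.54 and 20.6, so that this axis does not follow the genotype. On the second, with 23% of the variance, the groups were parted: cKO arrays stood between 7.35 and 20 and WT arrays between -21.2 and -2.58. The label interfollicular epidermis was checked against markers: all 7 basal keratinocyte genes read between 10.6 and 12.9 on average, and 6 suprabasal ones between 7.41 and 12.6. Of 10 hair follicle markers, Krt79 (10.3) and Sox9 (9.33) read high and the other 8 between 3.72 and 6.13. Markers of other cell types mostly read low, with list medians of 4.38 for fibroblasts, 4.50 for endothelium and mural cells, 4.39 for leukocytes and 5.53 for melanocytes, nerve and fat. The brightest among them were Thy1 (10.3) of the fibroblast list, H2-Aa (8.56) and Cd74 (8.37) of the leukocyte list and Acta2 (7.27) of the mural list. Fewer cells of a type and less RNA per cell cannot be told apart in such samples.

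Among the 63 member probe sets, 1 rose in cKO and none fell. It was a probe set of Dkk3, a secreted member of the Dickkopf family, which was 1.38-fold higher. The other members did not pass the test (limma, Benjamini-Hochberg adjusted p under 0.05 over all probe sets). This 1 call in 63 is 1.59%, against 0.466% of all probe sets called in either direction, 0.393% as higher and 0.0733% as lower, and a single call does not set the family apart from that background. Without adjustment 7 members had a limma p under 0.05, or 11.1%, against 7.98% of all probe sets. The differences of the 63 members had a median of 0.017 on the log2 scale, against 0.005 over all probe sets, and 37 were above 0 (58.7%, against 53% of all). In 6 members, or 9.52%, the cKO and the WT arrays did not overlap, against 4.89% of all probe sets. In 4 of them cKO was the higher group (background 3.17%): both probe sets of Dkk3 and 2 of the 3 of Fzd2. In the other 2, Wnt2b and Dkkl1, it was the lower one (background 1.72%). With 1 probe set for each gene, the one with the highest mean, Dkk3 was again the member called among 40, where 0.977% of 17097 genes were called.

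**Figure D1:**
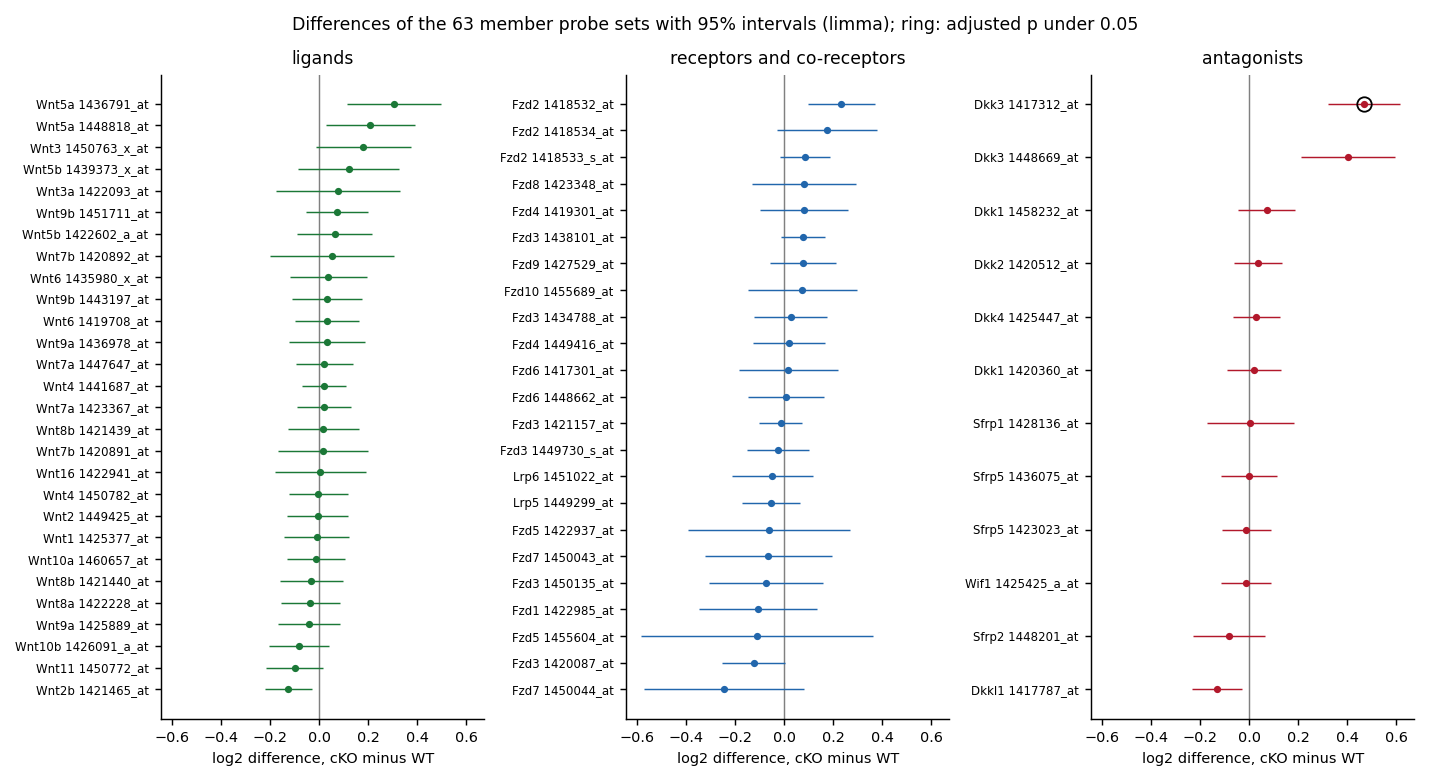
Log2 difference (cKO minus WT) on the x axis with its 95% interval for each of the 63 member probe sets on the y axis, in 3 panels for ligands, receptors and antagonists. The Dkk3 probe set 1417312_PM_at at 0.47 carries the ring that marks an adjusted p under 0.05, and most other intervals cross 0.

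Most members had narrow intervals, as did most of all probe sets. For 59 of the 63 probe sets (93.7%, against 95.3% of all probe sets) the 95% interval of the difference lay wholly within 0.5 of 0 on the log2 scale, which is a change of 1.41-fold. The 4 exceptions were both probe sets of Dkk3, whose intervals reach 0.61 and 0.59, one of Fzd5 (-0.58 to 0.36) and one of Fzd7 (-0.57 to 0.08). For the 28 ligand probe sets every interval stayed within that bound. Of these, 8 were dim, below the lower quartile of all probe sets, and a narrow interval there need not bound the change of the transcript. These intervals come from the limma fit of single probe sets and are not adjusted for the number of members.

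Among the ligands, no probe set passed in either direction by limma. Without adjustment 3 had a limma p under 0.05 (10.7%, against 7.98% of all probe sets). These were both probe sets of Wnt5a on the higher side and that of Wnt2b on the lower. The median difference of the ligands was 0.020. The ligand probe sets read from 3.61 to 10.5 on average, and 6 of the 28 stood above the upper quartile of all probe sets, 7.75: both of Wnt4, that of Wnt10a, both of Wnt7b and that of Wnt3. A further 8 stood below the lower quartile, 4.50, among them those of Wnt1, Wnt2 and Wnt8a and both of Wnt7a and of Wnt8b. Such low signals were not shown to lie above background. Probe sets differ in how strongly they hybridise, so these positions do not rank the amounts of the transcripts.

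**Figure D2:**
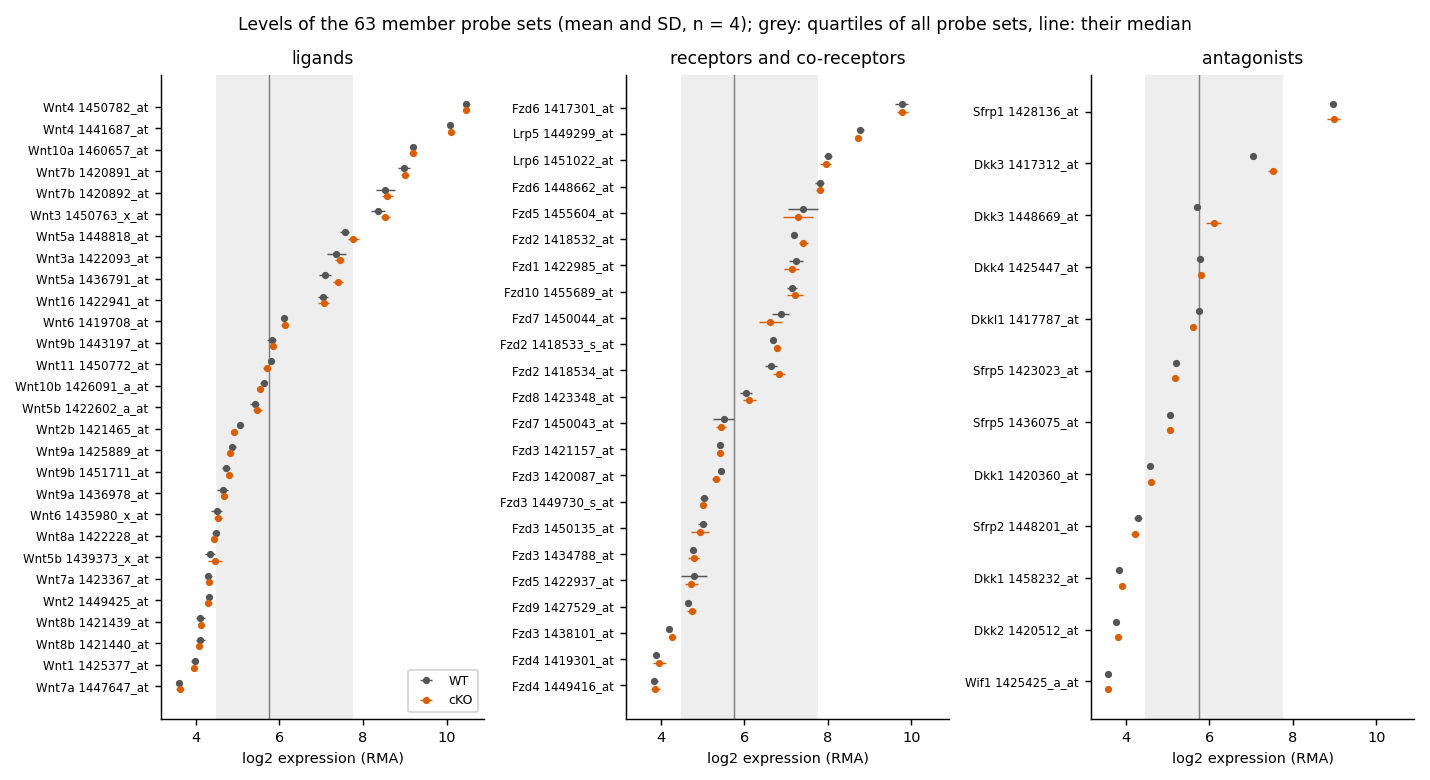
Mean log2 expression with SD (n = 4) on the x axis in WT (grey) and cKO (orange) for each member probe set on the y axis, by class; the shaded band is the range between the quartiles of all probe sets (4.50 to 7.75) and the line their median (5.75). The WT and cKO points of nearly all members lie on top of each other, with Dkk3 apart.

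The brightest ligands were alike in the groups. Wnt4, a ligand known from basal epidermis, read 10.51, 10.51, 10.42 and 10.42 in cKO 1 to 4 and 10.39, 10.58, 10.48 and 10.43 in WT 1 to 4 at probe set 1450782_PM_at. At its other probe set, 1441687_PM_at, it read 10.13, 10.13, 10.07 and 10.11 in cKO and 10.06, 10.12, 10.06 and 10.11 in WT, so that the groups overlapped at both. The differences were -0.003 (95% interval -0.12 to 0.12) and 0.02 (-0.07 to 0.11), and as ratios of cKO over WT these intervals run from 0.918 to 1.08 and from 0.953 to 1.08. Wnt10a, whose loss impairs teeth, hair and sweat glands, read 9.22, 9.28, 9.20 and 9.09 in cKO and 9.20, 9.28, 9.21 and 9.15 in WT. Its difference was -0.01 (SE 0.05, limma adjusted p = 0.992), and the groups overlapped fully. Wnt7b, a ligand of embryonic and hair follicle epithelium, read 8.91, 9.14, 9.0 and 8.95 in cKO and 8.88, 9.12, 9.11 and 8.83 in WT at probe set 1420891_PM_at (0.02, SE 0.08, adjusted p = 0.995). Its other probe set ranged from 8.26 to 8.74 over the 8 arrays, with WT 4 the lowest. The signs of the small differences of Wnt10a, Wnt7b and Wnt4 probe set 1450782_PM_at turned when single arrays were left out.

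Wnt5a, a ligand known mainly for signalling without beta-catenin, had the largest differences among the ligands, at either probe set. At 1436791_PM_at it read 7.53, 7.37, 7.46 and 7.26 in cKO and 6.93, 7.12, 7.05 and 7.29 in WT. Probe set 1448818_PM_at read 7.88, 7.73, 7.87 and 7.60 in cKO and 7.44, 7.60, 7.49 and 7.71 in WT. In both, WT 4 was the highest WT array and cKO 4 the lowest cKO array, and the groups overlapped there, while replicates 1 to 3 were parted by genotype. The log2 differences were 0.31 (SE 0.08, limma adjusted p = 0.272) and 0.21 (SE 0.08, adjusted p = 0.529), or 1.24-fold and 1.15-fold, and neither passed. The exact permutation test over the 70 arrangements of 4 against 4 gave p = 0.0571 and 0.0857, two-sided, for these single probe sets. Leaving out 1 array at a time, the first difference ran from 0.25 without WT 1 to 0.37 without WT 4. It never passed there, with limma adjusted p from 0.0844 (without WT 4) to 0.678. With array weights, which called more of all probe sets as well, it was 0.37 and passed (adjusted p = 0.0372). Its close relative Wnt5b stood at 0.06 and 0.12 at its 2 probe sets (limma adjusted p = 0.942 and 0.870).

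Wnt3, a ligand that signals through beta-catenin, was read by a single probe set of the kind marked _x_at, whose probes other transcripts may share. It read 8.45, 8.46, 8.64 and 8.60 in cKO and 8.29, 8.27, 8.27 and 8.61 in WT. WT 4 stood with the cKO arrays while the other 3 WT arrays lay between 8.27 and 8.29. The difference was 0.18 (SE 0.09, limma adjusted p = 0.668), and without WT 4 it was 0.27 and still did not pass (adjusted p = 0.109). Wnt2b, a relative of Wnt2, was the lower ligand whose groups were parted: it read 4.98, 4.93, 4.86 and 4.94 in cKO and 5.07, 5.01, 5.06 and 5.08 in WT. The groups were parted narrowly, and the difference of -0.13 (SE 0.04, limma adjusted p = 0.430) did not pass.

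**Figure D3:**
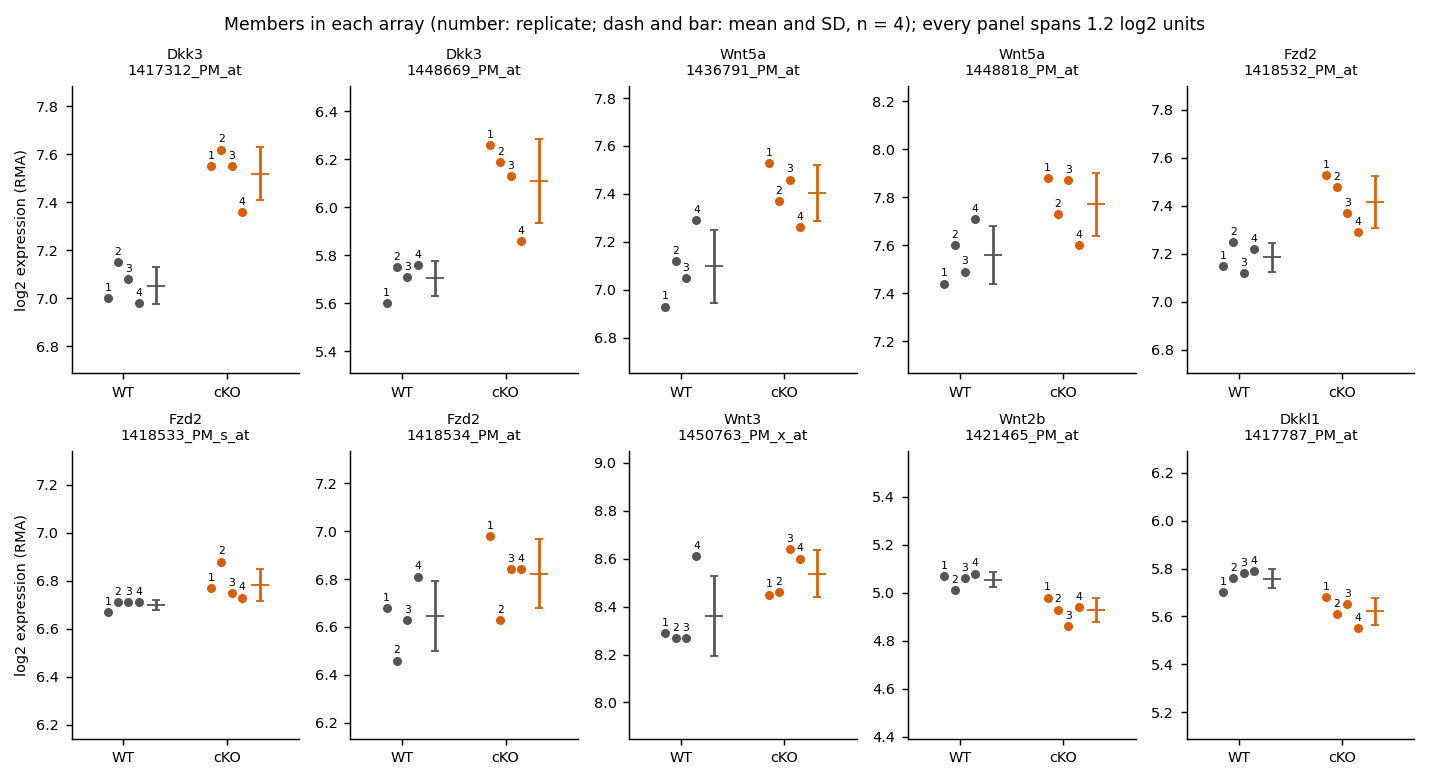
Log2 expression (y axis) in each WT (grey) and cKO (orange) array for 10 member probe sets, with replicate numbers, mean and SD (n = 4); every panel has the same span. Dkk3 and Fzd2 1418532_PM_at are parted by genotype, and WT 4 sits with the cKO arrays for Wnt5a and Wnt3.

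Some ligand genes are neighbours. By the order of protein-coding genes in the RefSeq table, 8 of the members form 4 adjacent pairs: Wnt6 with Wnt10a on chromosome 1, Wnt3a with Wnt9a and Wnt9b with Wnt3 on chromosome 11, and Wnt10b with Wnt1 on chromosome 15. No pair held a called probe set. Wnt6 stood at 0.03 and 0.04 beside Wnt10a at -0.01, Wnt3a at 0.08 beside Wnt9a at -0.04 and 0.03, Wnt9b at 0.03 and 0.07 beside Wnt3 at 0.18, and Wnt10b at -0.08 beside Wnt1 at -0.01 (log2, cKO minus WT). The 40 genes lie on 13 chromosomes.

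Promoter windows, 250 bases before to 50 after a transcription start, were found in the RefSeq table (GRCm38.p6) for 27 of the 40 member genes, as 30 windows. Among the genes without an entry were Dkk3, Wnt5a and Fzd2. The member windows were rich in G and C, with a median of 66.5% against 52.7% over 32851 windows of the table, and their observed over expected CpG ratio had a median of 0.75 against 0.384. The receptor windows had the highest median GC share, 74.2%, and the antagonist windows the lowest, 61.0%. The words CTTTGAT and CTTTGAA, which TCF/LEF factors bind, were searched on both strands. They occurred in 3 of the 30 member windows (10.0%) and in 8.65% of all windows. The 250 bases before the start of these 3 are shown, because beta-catenin feeds back on its own ligands and antagonists and these are the members with the word near a start. Each is written 5′ to 3′ on the gene's strand, with the word in capitals; in Wnt11 it is on the other strand.
Dkk1 (chr19:30549497-30549746, minus strand): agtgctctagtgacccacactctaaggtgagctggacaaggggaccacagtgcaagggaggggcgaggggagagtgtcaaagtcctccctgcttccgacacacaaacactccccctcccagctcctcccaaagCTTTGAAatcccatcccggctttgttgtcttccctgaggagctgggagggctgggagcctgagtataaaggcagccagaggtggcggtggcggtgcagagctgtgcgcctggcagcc
Wnt11 (chr7:98834862-98835111, plus strand): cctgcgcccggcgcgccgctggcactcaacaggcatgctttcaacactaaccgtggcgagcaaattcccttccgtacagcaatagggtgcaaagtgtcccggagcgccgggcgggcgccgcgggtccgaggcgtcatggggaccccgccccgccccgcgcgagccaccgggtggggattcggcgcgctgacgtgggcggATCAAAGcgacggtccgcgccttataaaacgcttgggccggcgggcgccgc
Wnt5b (chr6:119449387-119449636, minus strand): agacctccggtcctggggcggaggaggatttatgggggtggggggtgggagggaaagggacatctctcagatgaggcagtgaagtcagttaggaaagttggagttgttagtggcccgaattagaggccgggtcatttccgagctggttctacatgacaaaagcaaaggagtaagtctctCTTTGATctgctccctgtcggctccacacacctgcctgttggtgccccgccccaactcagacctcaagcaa
A match to a word is a description of these letters and not a bound site. None of these 3 genes passed the test. Dkk1, an inhibitor that beta-catenin itself is known to induce, read between 4.50 and 4.65 over the 8 arrays at probe set 1420360_PM_at, with a difference of 0.02. Wnt11 read between 5.62 and 5.84, with a difference of -0.10 (limma adjusted p = 0.714). Wnt5b has 2 further windows and Wnt11 has 1, which hold no such word.

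Among receptors and co-receptors no probe set passed by limma. Of 23, 1, of Fzd2, had an unadjusted p under 0.05 (4.35%, against 7.98% of all probe sets). The median difference was 0.007. The brightest were Fzd6, a receptor known for orienting hairs across the skin, and both co-receptors. Fzd6 read 9.96, 9.69, 9.78 and 9.68 in cKO and 9.75, 9.64, 9.68 and 9.98 in WT at probe set 1417301_PM_at, and 7.95, 7.75, 7.79 and 7.75 in cKO and 7.74, 7.81, 7.70 and 7.95 in WT at probe set 1448662_PM_at. At both, cKO 1 and WT 4 were the highest of their groups, and the differences of 0.02 and 0.01 turned sign without single arrays. Lrp5 read 8.72, 8.72, 8.80 and 8.66 in cKO and 8.82, 8.68, 8.75 and 8.86 in WT (-0.05, SE 0.05, limma adjusted p = 0.926). Lrp6 read 8.11, 7.93, 7.95 and 7.81 in cKO and 8.03, 7.88, 7.98 and 8.10 in WT (-0.05, SE 0.07, adjusted p = 0.968). The groups overlapped for both co-receptors, with 95% intervals from -0.17 to 0.07 and from -0.21 to 0.12.

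Fzd2, a receptor that can bind Wnt5a, had a higher mean in cKO at each of 3 probe sets, none of which passed. At 1418532_PM_at it read 7.53, 7.48, 7.37 and 7.29 in cKO and 7.15, 7.25, 7.12 and 7.22 in WT, so that the groups did not overlap. Its difference was 0.23 (SE 0.06, 1.18-fold, limma adjusted p = 0.229). Probe set 1418533_PM_s_at read 6.77, 6.88, 6.75 and 6.73 in cKO and 6.67, 6.71, 6.71 and 6.71 in WT, a narrow separation with a difference of 0.08 (adjusted p = 0.723). Probe set 1418534_PM_at read 6.98, 6.63, 6.84 and 6.84 in cKO and 6.68, 6.46, 6.63 and 6.81 in WT (0.17, adjusted p = 0.712), where the groups overlapped. The difference of the first stayed between 0.20 and 0.28 whichever array was left out, and its limma adjusted p between 0.144 and 0.636.

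Fzd7 and Fzd3 held the largest negative differences among the receptors. Fzd7, a receptor of epithelial stem cells in several tissues, read 6.97, 6.42, 6.72 and 6.38 in cKO and 7.15, 6.79, 6.86 and 6.67 in WT at probe set 1450044_PM_at (-0.25, SE 0.14, limma adjusted p = 0.778). The arrays of both groups were widely spread and overlapped. Fzd3, best known from axon guidance and hair patterning, had 6 probe sets with differences from -0.12 to 0.08. The lowest, 1420087_PM_at, read 5.44, 5.30, 5.34 and 5.21 in cKO and 5.50, 5.46, 5.36 and 5.46 in WT (adjusted p = 0.646). Fzd5 was the member that varied most within groups, with a pooled SD of 0.36 at probe set 1455604_PM_at against a median of 0.09 over the 63 members and over all probe sets. It read 7.44, 7.70, 7.16 and 6.85 in cKO and 7.67, 7.41, 7.62 and 6.89 in WT, and the lowest array of each group was replicate 4. At its other probe set, 1422937_PM_at, cKO 4 (4.52) and WT 4 (4.36) were again the lowest. These 2 arrays lie at the same end of the first principal component, and its part in the spread of Fzd5 was not tested.

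Among the antagonists Dkk3 stood out. Of 12 antagonist probe sets, 25% had an unadjusted limma p under 0.05, against 7.98% of all probe sets. These were both of Dkk3 on the higher side and that of Dkkl1 on the lower. The same probe sets did not overlap between the groups (25%, against 4.89%). The median difference of the antagonists was 0.012. Dkk3 is a divergent Dickkopf protein, which unlike Dkk1 is not known as a strong inhibitor at Lrp6 and is often silenced in tumours. Probe set 1417312_PM_at read 7.55, 7.62, 7.55 and 7.36 in cKO and 7.00, 7.15, 7.08 and 6.98 in WT. Every cKO array lay above every WT array. The difference was 0.47 (SE 0.07, 95% interval 0.32 to 0.61), or 1.38-fold (1.25 to 1.53), with a limma adjusted p of 0.0171. Probe set 1448669_PM_at read 6.26, 6.19, 6.13 and 5.86 in cKO and 5.60, 5.75, 5.71 and 5.76 in WT. The groups were parted here too, narrowly between cKO 4 and WT 4, and the difference was of like size at 0.40 (SE 0.08, 1.32-fold), but it did not pass (limma adjusted p = 0.112). For each probe set the exact permutation test gave p = 0.0286, two-sided, the smallest that 4 against 4 allows. Any probe set whose groups do not overlap has this value, which holds for 4.89% of all probe sets, so it adds nothing to the separation. In both, cKO 4 was the lowest cKO array.

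The size of the Dkk3 difference moved little with the arrays used, while its call changed. Leaving out 1 array at a time, it stayed between 0.43 and 0.52 at probe set 1417312_PM_at and between 0.35 and 0.49 at 1448669_PM_at. The first lost its call without cKO 1 (limma adjusted p = 0.0527), cKO 2 (0.0584), cKO 3 (0.0801), WT 1 (0.0875) or WT 3 (0.0666). The second passed without cKO 4 (0.0136) and with array weights (0.0217). Dkk3 is also known from hair follicles and from dermal cells, and the marker lists of these cell types were read beside it. The summed level of 10 hair follicle markers ran from 1940 to 2480 in cKO and from 2140 to 2740 in WT (linear scale). Such sums follow the brightest genes of a list, here Krt79 and Sox9, with log2 differences of -0.23 and -0.12. The other follicle genes lay between -0.09 (Krt71) and 0.20 (Lhx2), and the list median was 0.004. For 10 fibroblast and dermal papilla markers the sum ran from 1480 to 1780 against 1380 to 1700. The brightest gene of that list was Thy1 at 10.3, which some epidermal T cells also express. Thy1 stood at 0.20, Col3a1 at 0.18 and the other genes between -0.09 (Pdgfra) and 0.09 (Col1a2), with a list median of 0.058. The summed level of 7 endothelial and mural markers ran from 347 to 377 in cKO and from 297 to 346 in WT. These ranges did not overlap. The brightest gene of that list was Acta2 at 7.27, which also stood furthest at 0.41 (SE 0.11, limma adjusted p = 0.248). The other genes of the list lay between -0.06 (Rgs5) and 0.08 (Emcn), and the list median was -0.002. For 8 leukocyte markers the sum ran from 698 to 1240 against 467 to 957. The brightest genes of that list were H2-Aa at 8.56 and Cd74 at 8.37. They also stood furthest, at 0.40 and 0.49, and their groups overlapped (limma adjusted p = 0.804 and 0.814). The other leukocyte genes lay between -0.10 (Ptprc) and 0.15 (Lyz2), and the list median was 0.088. Lyz2, a dim signal of 4.26, did not overlap between the groups (0.15, limma adjusted p = 0.404). For 7 markers of melanocytes, nerve and fat the sum ran from 316 to 375 against 323 to 335. The melanocyte gene Mlana did not overlap between the groups either (0.25, limma adjusted p = 0.399). Pmel, Dct, Tyrp1 and Sox10 of the same list overlapped, at -0.03, 0.07, 0.11 and -0.004. Over all probe sets 4.89% did not overlap. No marker of these lists passed the test, and the part of such cells in the difference of Dkk3 was not tested.

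**Figure D4:**
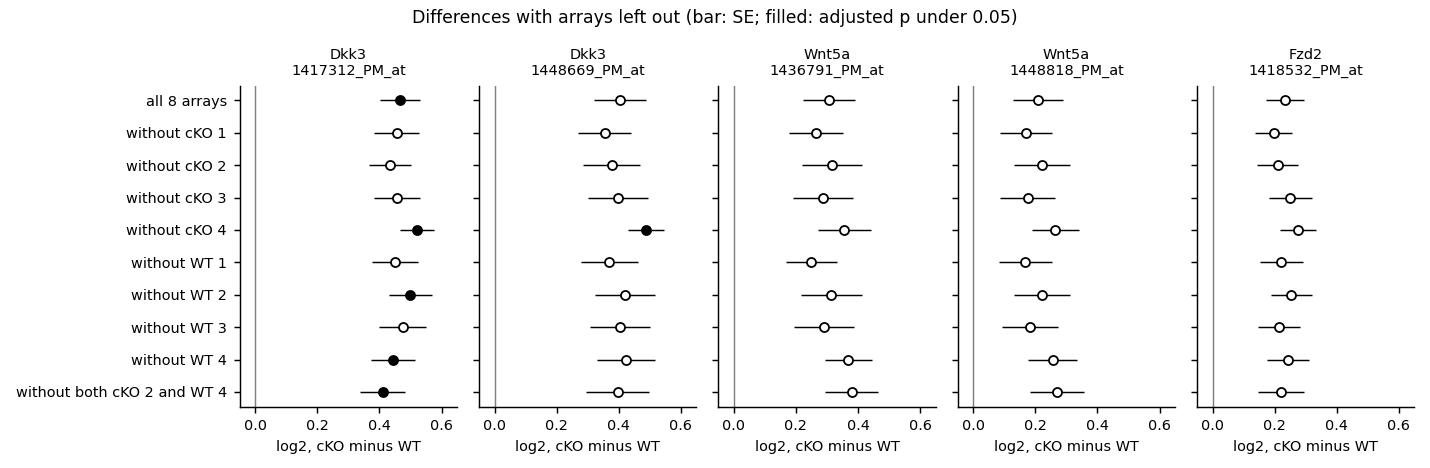
Log2 difference (x axis, bar: SE) of Dkk3, Wnt5a and Fzd2 probe sets with all 8 arrays, without each array in turn, and without both cKO 2 and WT 4; filled points have an adjusted p under 0.05. All points lie above 0, and the call of Dkk3 1417312_PM_at comes and goes while its size stays between 0.41 and 0.52.

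The other antagonists did not pass. Sfrp1, which binds Wnt proteins outside the cell, was the brightest: it read 9.06, 9.13, 8.94 and 8.76 in cKO and 9.01, 8.87, 8.99 and 9.0 in WT, a difference of 0.01 (95% interval -0.17 to 0.18) whose sign turned when arrays were median centred. Dkk4, a small relative of Dkk1, read 5.81, 5.80, 5.83 and 5.83 in cKO and 5.75, 5.86, 5.74 and 5.79 in WT (0.03, limma adjusted p = 0.965). Dkkl1, a Dickkopf-like gene known from testis, read 5.68, 5.61, 5.65 and 5.55 in cKO and 5.70, 5.76, 5.78 and 5.79 in WT. Its groups were parted narrowly, and the difference of -0.13 (SE 0.05, adjusted p = 0.436) did not pass. Sfrp2, known from dermal fibroblasts, read 4.27, 4.12, 4.33 and 4.16 in cKO and 4.40, 4.29, 4.18 and 4.33 in WT (-0.08, adjusted p = 0.885). Dkk2, Sfrp5 and Wif1 stood between -0.01 and 0.04, and Wif1 had the lowest signal of all members, 3.58 on average.

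Probe sets of the same gene mostly pointed one way. Of the 18 genes with several, 11 had all differences above 0, 3 all below 0 and 4 mixed signs. Leaving out 1 array at a time, 34 of the 63 members kept the sign of their difference throughout.

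Other genes of the pathway were read from 7 lists, which held 228 probe sets of 105 genes besides the members. Of these 1 rose and 1 fell, together 0.877% against 0.466% of all probe sets, with a median difference of 0.006 against 0.005. Groups did not overlap in 9 probe sets (3.95%, against 4.89% of all probe sets). Lypd6, a membrane-anchored protein that promotes signalling at Lrp6, fell at probe set 1454969_PM_at: it read 4.52, 4.49, 4.69 and 4.59 in cKO and 5.06, 4.94, 4.93 and 5.02 in WT. The difference was -0.42 (SE 0.06, 1.33-fold lower, limma adjusted p = 0.0161). A second probe set, 1456138_PM_at, was parted as well at -0.38 (adjusted p = 0.191), and the third stood at -0.03. These are dim signals, below the median of all probe sets. The call was lost without cKO 2 (adjusted p = 0.0569) or WT 1 (0.0769). Csnk1e, a casein kinase that phosphorylates Dishevelled, rose at probe set 1417176_PM_at: it read 7.92, 7.90, 7.89 and 7.93 in cKO and 7.62, 7.70, 7.68 and 7.71 in WT, a difference of 0.23 (SE 0.04, 1.17-fold, limma adjusted p = 0.0454). Its other probe sets stood at 0.11 and 0.21 and did not pass. The call was lost without any 1 of the 8 arrays, with adjusted p from 0.0543 without WT 4 to 0.181 without WT 3.

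Upstream of the ligands, the list of secretion and extracellular handling had no call among 23 probe sets by limma, with 6 at an unadjusted p under 0.05 (26.1%, against 7.98% of all probe sets). Groups did not overlap in 3 (13%, against 4.89%), and the median difference was 0.005, as over all probe sets. Wls, which carries Wnt proteins to the cell surface, read 9.12, 9.25, 9.0 and 8.96 in cKO and 8.67, 8.87, 8.75 and 8.83 in WT at probe set 1423825_PM_at (0.30, SE 0.07, limma adjusted p = 0.188). Its other 2 probe sets stood at 0.16 and 0.10. Trabd2b, a protease that inactivates Wnt proteins, read lower in every cKO array at 1 of its 2 probe sets, 1439849_PM_at (-0.30, adjusted p = 0.190). The other stood at -0.05, and its groups overlapped. Probe set 1439849_PM_at passed without WT 2 (-0.37, limma adjusted p = 0.0371) and with array weights (-0.36, adjusted p = 0.0404). With any other single array left out it did not pass, with adjusted p from 0.182 (without WT 4) to 0.535 (without WT 1). Sulf2, a sulfatase of the cell surface, stood at 0.25 at probe set 1447602_PM_x_at (adjusted p = 0.209), which is also of the _x_at kind. At its other probe set it stood at 0.12, and the groups overlapped.

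The other inhibitors are mostly secreted, but their list includes the cytoplasmic Dact proteins and the membrane protein Apcdd1. It had no call among 23 probe sets by limma and 2 at an unadjusted p under 0.05 (8.7%, against 7.98% of all probe sets). Both were of Sostdc1, a secreted antagonist of BMP and Wnt signalling. It read 10.94, 10.68, 10.68 and 10.65 in cKO and 10.46, 10.36, 10.33 and 10.60 in WT at probe set 1460250_PM_at, and 10.03, 9.68, 9.80 and 9.75 in cKO and 9.63, 9.45, 9.49 and 9.68 in WT at 1449340_PM_at. The groups were parted at both, at the second only in the digits not shown, with differences of 0.30 (SE 0.08, adjusted p = 0.248) and 0.25 (SE 0.08, adjusted p = 0.404). Downstream, none of 23 probe sets of nuclear effectors, 39 of beta-catenin targets or 46 of the polarity and calcium branch passed by limma. Of these lists 0, 1 and 1 had an unadjusted p under 0.05 (0%, 2.56% and 2.17%, against 7.98% of all probe sets). The largest differences in these lists were -0.14 for the corepressor Tle4, -0.17 for the Notch ligand Jag1 and 0.28 for the polarity gene Prickle2, with limma adjusted p of 0.907, 0.807 and 0.666.

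**Figure D5:**
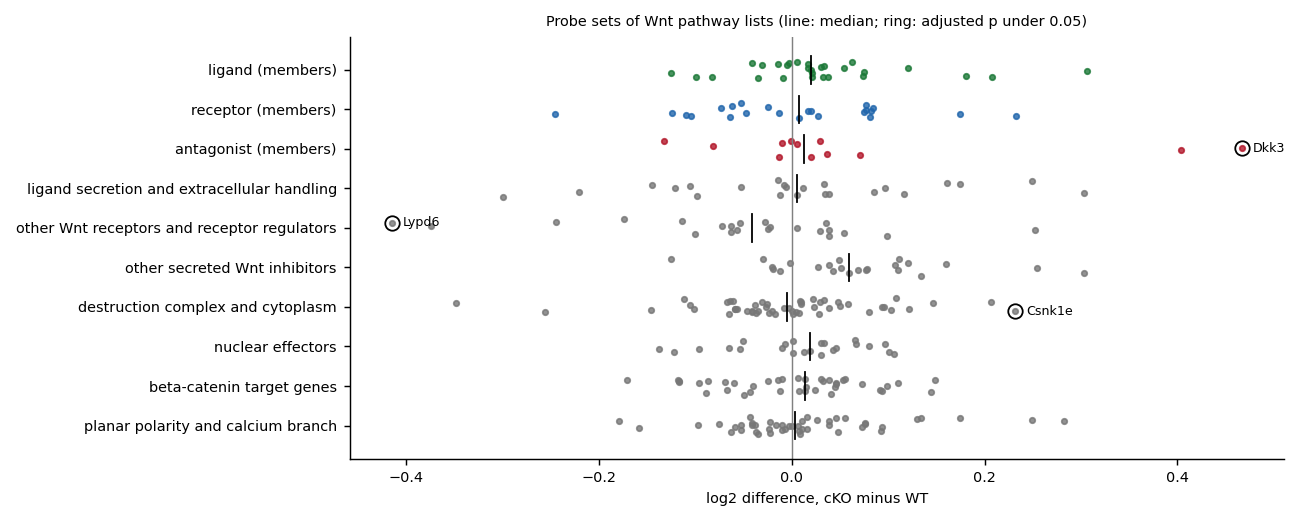
Log2 difference (cKO minus WT, x axis) of each probe set in the 3 member classes (coloured) and in 7 lists of other pathway genes (grey), with medians as lines and rings for an adjusted p under 0.05. The medians lie between -0.04 and 0.06, and the rings mark Dkk3, Lypd6 and Csnk1e.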

How the data were processed

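RNA of 8 samples was hybridised to 1-colour arrays, 1 array each; per the labels' protocols, 25 ng of RNA were amplified in 17 cycles and 8 µg of cDNA were labelled. The values deposited by the authors are log2 expression per probe set, and RMA is the method named by the submitters' processing notes. No source used here gives its version or settings, and log2 was read from the range of 3.06 to 13. RMA quantile-normalises arrays, so that a shift of all genes could not be seen. Of 45141 rows, 104 controls were left out. Groups come from the titles. Using limma 3.58.1 in R 4.3.3 (lmFit and eBayes), cKO was compared with WT on all 45037 probe sets, two-sided, with Benjamini-Hochberg adjustment and no filter on dim probe sets; the procedure was tested on simulated data. Arrays carry no read depth, so their number, 4 per group, limits precision. The members, lists and alternatives were chosen with earlier results of these data known. Values in every array are given for members past the threshold, with groups that do not overlap, or among the 4 largest differences or 4 highest means of their class. Fzd5 was added after its values were seen, for its spread. Of the pathway lists, genes past the threshold and up to 3 of the largest differences in each list could be named. Apc2 (0.10) was also parted by group and was named after its values were seen. Marker lists use the brightest probe set of each gene. Alternatives were the replicate block, filters, scalings, eBayes priors, array weights, probe set rules, thresholds and left-out arrays. Sequences were read from RefSeq tables.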

Additional observations from a re-analysis of the deposited data

Results flagged for a closer look

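In 5 of 126 groups of 4 arrays (3.97%), 1 array stood far from the other 3 at a member probe set by Dixon's test; chance flags about 1 in 20. For Wnt3 1450763_PM_x_at, WT 4 read 8.61 against 8.27 to 8.29. For Wnt6 1435980_PM_x_at, cKO 3 read 4.41 against 4.57 to 4.59. For Fzd2 1418533_PM_s_at, WT 1 read 6.67 where the other WT arrays agreed at 6.71. For Fzd3 1434788_PM_at, WT 2 read 4.79 against 4.75, and for Sfrp5 1423023_PM_at, WT 2 read 5.16 against 5.21 to 5.22. The cause of these was not tested.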

How the results depend on the processing

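Against 210 probe sets called in all, 132 were called among the upper 50% by mean level, 343 at an adjusted p under 0.10, 758 with array weights and 657 without both cKO 2 and WT 4; leaving out 1 array gave 104 (without WT 1) to 356 (without WT 4). Member calls, 1 as reported, were 3 with array weights (1 ligand, Wnt5a, and 2 antagonist probe sets, both Dkk3) and 0 to 2 when 1 array was left out, all antagonists. The Csnk1e call was also lost with median centring (limma adjusted p = 0.0599), repeated quantile normalisation (0.0556), a trended prior (0.175) and the upper 50% (0.0743). No pairing of the arrays by replicate number was evident. Deviations of same-numbered arrays correlated at 0.13, 0.22, -0.62 and 0.37, and not every array correlated best with its own number. Such correlations among 4 arrays per group cannot exclude a pairing. With the replicate block 175 probe sets were called in all and 1 member, and Lypd6 (adjusted p = 0.0666) and Csnk1e (0.22) were not called. Differences near 0 turned sign. Sfrp1 stood at -0.01 with median centring, -0.02 with array weights and -0.04 without both cKO 2 and WT 4, and from -0.05 to 0.08 when 1 array was left out. Wnt7b 1420891_PM_at stood at -0.01 with array weights and -0.08 without both, and from -0.03 to 0.06. Fzd6 1448662_PM_at stood at -0.01 with median centring and from -0.04 to 0.06, and Ehmt2 1426888_PM_at at 0.00 and from -0.03 to 0.04. With 1 array left out, Fzd6 1417301_PM_at ran from -0.04 to 0.09, Wnt4 1450782_PM_at from -0.03 to 0.03, Wnt10a from -0.04 to 0.02 and Lrp6 from -0.10 to 0.00. The median of all probe sets moved from 0.005 to -0.011 with median centring and to -0.003 with repeated quantile normalisation, and that of the members from 0.017 to 0.001 and 0.008. The cause of these changes was not tested. Dim probe sets can hide changes, and 15 of the 63 members lie below the lower quartile of signals.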
